A study of Rattus norvegicus with 4 samples.

Results

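Cd36 and the Slc27a1, Slc27a2, Slc27a3, Slc27a4 and Slc27a6 carriers serve the uptake of fatty acids, and the nuclear receptors Ppara and Pparg sense them. Fgf21 encodes a hormone, and Klb encodes the co-receptor of that hormone. These 10 genes were listed by name, with earlier results of these data known. On the array 9 of them had a probe set that carried their symbol alone, out of 14506 genes measured, and Klb was not analysed here. The samples were livers of untreated male rats of the WNIN/Ob strain, aged 4 months and fed stock diet, which were of either the lean or the obese phenotype. RNA of 4 lean rats made up the lean pool and RNA of 4 obese rats the obese pool, and each pool was hybridised to 2 Affymetrix arrays, the original and its technical replicate. The genetic change behind the obesity is not given in the labels.

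Each phenotype is therefore a single pool. The arrays repeat the measurement and not the animals, no test across animals exists, and every difference below is between these pools. In whole liver RNA, fewer cells of a type and less RNA per cell cannot be told apart.

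Long-chain fatty acids reach the hepatocyte bound to albumin. CD36, a scavenger receptor at the cell surface, helps them in, and the SLC27 proteins join uptake to activation, because they are acyl-CoA synthetases that trap the fatty acid as its coenzyme A ester. Fatty acids in the cell are ligands of the peroxisome proliferator-activated receptors (PPARs). PPAR alpha, the abundant form in liver, pairs with a retinoid X receptor and switches on genes of fatty acid oxidation and the gene of FGF21, a hormone that the liver releases into the blood. PPAR gamma, the adipocyte form, is scarce in normal liver and drives lipid storage genes where it is raised. FGF21 acts on tissues that make both an FGF receptor and the co-receptor beta-klotho, the product of Klb.

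Values are log2 intensities, and a difference is the mean of the obese arrays minus the mean of the lean arrays. A fold is followed, in brackets, by the lowest and highest ratio among the 4 ways of pairing an obese with a lean array. A gene passed the 1.5-fold rule when the pools differed by a factor of 1.5, their nearest arrays lay 0.25 apart and the higher pool reached the level filter of 5.48, the median level of all genes. Intensities of different probe sets depend on their probes, so levels are compared between pools and not between genes.

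Although both pools are labelled liver, the lean pool also carried abundant skeletal muscle transcripts, so muscle RNA moved with the comparison. All 14 measured muscle markers passed the 1.5-fold rule as lower, against 2.43% of all genes, among them the actin Acta1, the creatine kinase Ckm and the calcium pump Atp2a1. Acta1 read 13.08 and 13.12 on lean and 6.89 and 6.87 on obese arrays. Their summed intensity was 14.98 and 15.05 (log2) on the lean and 8.98 and 9.02 on the obese arrays, with 14 markers at the level filter for lean and 3 for obese RNA, so no median fold is given. Muscle expresses Cd36, Slc27a1, Slc27a4, Lpl, Fabp3, Pdk4, Cav1, Ppargc1a and Des. The part of muscle RNA in their values, or in those of other genes such as Ppara, was not tested. Of the genes named as expressed in muscle, Cd36 was higher by the rule in the obese pool. Slc27a1 and Slc27a4 did not pass, and the others were lower.

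Cd36 and Fgf21 were higher in the obese pool, and the other measured genes of the group stayed short of the 1.5-fold rule. Of the 9 measured genes 2 passed the rule as higher and 0 as lower, against 2.19% of all genes as higher and 2.43% as lower. The median difference of the 9 was 0.06, beside 0.03 for all genes. In 7 of the 9 the arrays of the pools did not overlap, which held for 46.0% of all genes. The level filter was reached by 6 of the 9, and Slc27a3, Slc27a6 and Pparg stayed below it in both pools, so they are not shown to lie above background.

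**Figure D1:**
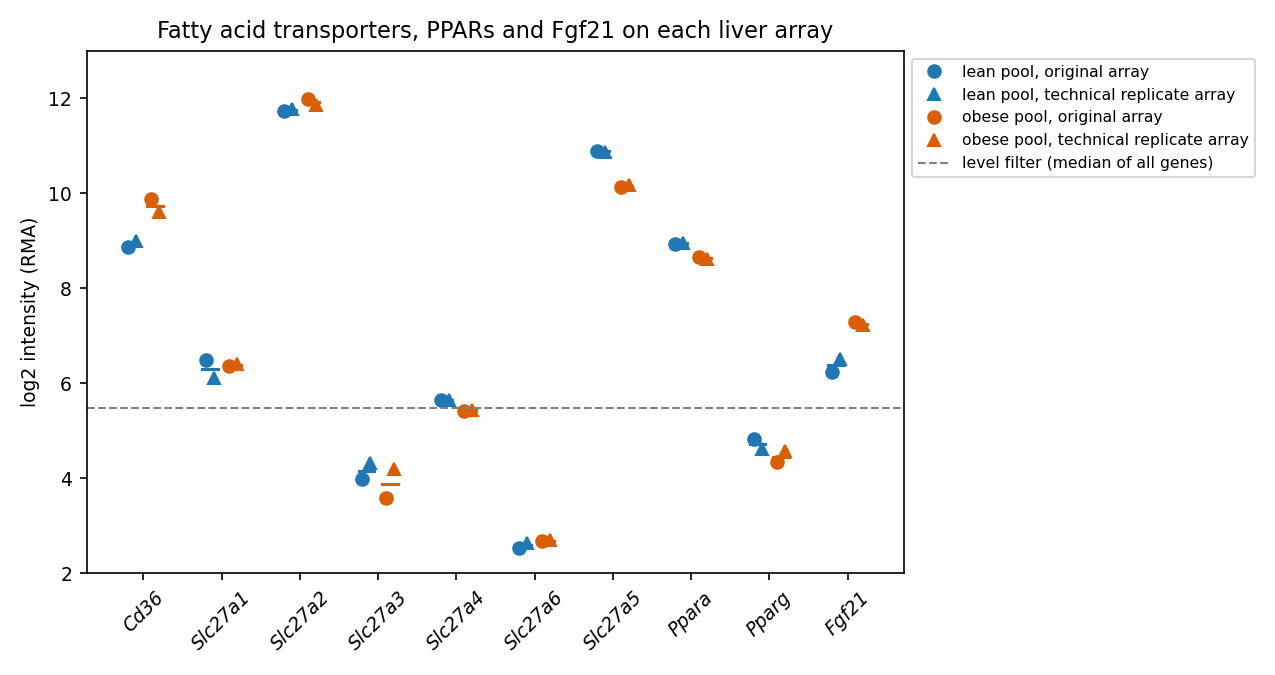
Log2 intensity (vertical axis) of each gene on the 4 liver arrays, lean pool in blue and obese pool in orange, original arrays as circles and technical replicates as triangles, with short lines at pool means and a dashed line at the level filter of 5.48. Cd36 and Fgf21 stand higher on both obese arrays, and Slc27a5, a relative of the Slc27 genes that is not among the 10, stands lower at 10.14 and 10.17 against 10.90 and 10.87.

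Cd36, the scavenger receptor for fatty acids, stood at 8.86 and 9.0 on the lean arrays and at 9.89 and 9.60 on the obese arrays. Both obese arrays lay above both lean arrays. The level was 8.93 ± 0.10 for the lean pool and 9.74 ± 0.20 for the obese one (SD of 2 arrays), a 1.76-fold excess in the obese pool (1.52 to 2.04). The obese arrays lay 0.29 apart, so the size depended on the array: the log2 difference was 1.03 between the original arrays and 0.60 between the technical replicates. A second Cd36 probe set, which is dimmer, stood at 5.73 and 5.80 in the lean pool and at 6.59 and 6.37 in the obese pool. It gave a 1.64-fold excess (1.48 to 1.81), the same direction from other probes of the gene. A difference of the size of that of Cd36 or larger was seen in 3.25% of all genes.

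None of the 5 listed Slc27 carriers passed the 1.5-fold rule. Slc27a2, a very-long-chain acyl-CoA synthetase and fatty acid carrier of liver and kidney, stood at 11.73 and 11.78 on the lean arrays and at 11.99 and 11.86 on the obese arrays. The obese arrays were the higher pair, by a fold of 1.12 (1.06 to 1.19), and 43.2% of all genes differed by as much. Slc27a4, the main carrier of the intestine, was at 5.65 on both lean arrays and at 5.41 and 5.45 on the obese arrays. Both obese arrays were lower, and their level of 5.43 lay just under the level filter, so no fold is given.

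Slc27a1, the insulin-responsive carrier of muscle and fat, showed no separation of the pools. Its lean arrays read 6.50 and 6.12 and its obese arrays 6.36 and 6.40, so both obese values fell between the lean ones. The fold was 1.05 with a range from 0.91 to 1.21. The sign of its difference turned with the lean array, to -0.12 without the lean technical replicate and 0.25 without the lean original, and cyclic loess between arrays brought it to 0.00. Slc27a3, an acyl-CoA synthetase found mainly on inner membranes, was dim and overlapping as well, at 3.98 and 4.32 on lean and 3.58 and 4.19 on obese arrays. Its obese arrays lay 0.61 apart, the widest gap within a pool among the 9 genes, and the difference of -0.27 became 0.04 without the obese original array. Slc27a6, the carrier best known from heart, read 2.53 and 2.65 against 2.68 and 2.70, far below the level filter on every array.

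A further member of the family in liver, Slc27a5, is not among the 10 genes. It encodes the hepatocyte carrier that also works as bile acid-CoA ligase, the enzyme that prepares bile acids for conjugation. It stood at 10.90 and 10.87 on the lean arrays and at 10.14 and 10.17 on the obese arrays. Both obese arrays were lower, with 0.03 between the arrays of either pool, and the obese level was lower by a factor of 1.65 (1.62 to 1.68), past the 1.5-fold rule. Side by side, the log2 difference was -0.72 for Slc27a5 and 0.17 for Slc27a2.

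**Figure D2:**
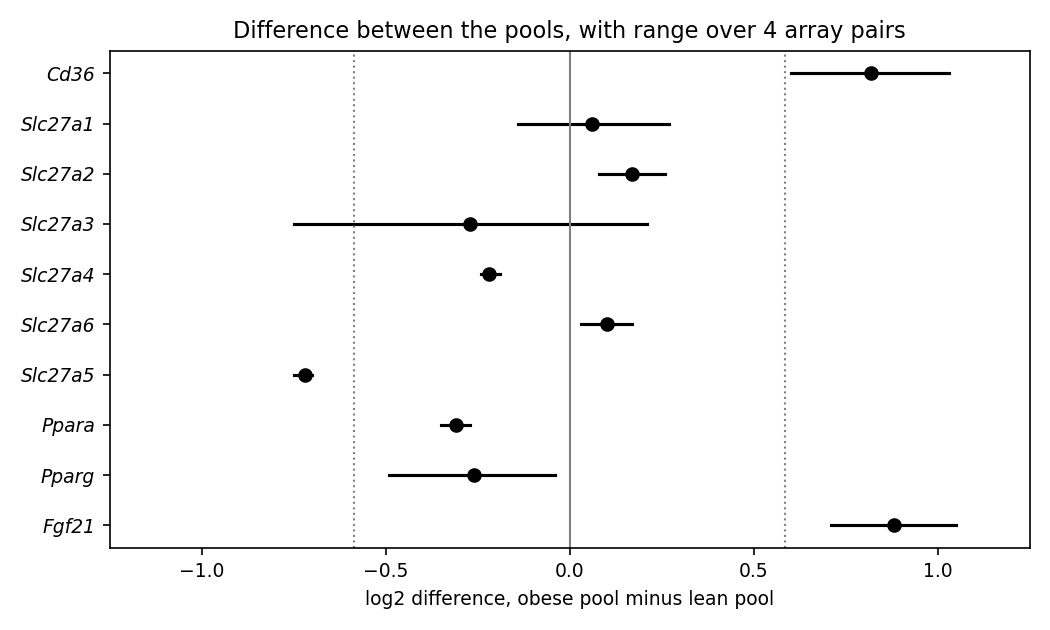
Log2 difference of the obese minus the lean pool (horizontal axis) for each gene, with the mean as a dot, the range over the 4 pairs of arrays as a line, and dotted lines at a factor of 1.5 in either direction. Cd36 and Fgf21 lie wholly to the right of the upper dotted line, Slc27a5 wholly to the left of the lower one, and the ranges of Slc27a1 and Slc27a3 cross 0.

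Other genes of fatty acid entry, binding and activation went both ways. By the 1.5-fold rule 3 of 16 were higher and 4 lower, against 2.19% and 2.43% of all genes. Their median was -0.07 and became 0.00 without the obese technical replicate array. Acsl5, an acyl-CoA synthetase that serves triglyceride synthesis, read 10.32 and 10.31 on lean and 11.29 and 11.17 on obese arrays, a 1.89-fold excess (1.80 to 1.98). Acsl1, the chief synthetase of liver, had a fold of 1.12 (1.08 to 1.16). The acyl-CoA-binding protein Dbi was 1.51-fold higher (1.41 to 1.62), which fell short of the rule after quantile normalisation, cyclic loess or an offset, without the lean technical replicate or the obese original array, and on the technical replicate arrays alone. Fabp2, a binding protein of the intestine, was higher as well, from lean arrays at 3.37 and 3.45 that lay under the level filter to 5.88 and 5.43, so no size is given for its fold. It no longer passed without the obese original array, on the technical replicate arrays alone or where both pools had to reach the filter. Besides Slc27a5 the lower genes were Fabp3, the binding protein of muscle and heart, Fabp7, a binding protein known from brain, and the caveolar protein Cav1. Fabp7 was 4.38-fold lower (3.86 to 4.97) and Cav1 2.45-fold (2.07 to 2.89). Fabp3 stood at 8.57 and 8.81 on the lean arrays and at 4.36 and 3.82, below the level filter, on the obese arrays. Fabp3 did not pass where both pools had to reach the filter.

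Ppara, the receptor that turns on fatty acid oxidation, read 8.94 and 8.96 on the lean arrays and 8.66 and 8.61 on the obese arrays. Both obese arrays were lower, and the step was larger than the 0.06 or less between arrays of a pool. It amounted to a factor of 1.24 (1.21 to 1.28), short of the 1.5-fold rule, and 19.2% of all genes differed by as much or more. Pparg, the adipocyte receptor, read 4.83 and 4.62 against 4.34 and 4.58. The arrays were separated by 0.04 only, less than the 0.21 and 0.24 between arrays of the same pool, and all lay below the level filter.

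Targets of PPAR alpha lay mostly above 0, beside the difference of -0.31 for the receptor's own transcript. Of 24 measured targets 4 were higher and 1 lower by the 1.5-fold rule, against 2.19% and 2.43% of all genes. Differences above 0 were seen in 20 of them, as in 56.9% of all genes, and the median was 0.26. Cyp4a1, an omega-hydroxylase of fatty acids, read 9.34 and 9.32 on lean and 10.59 and 10.44 on obese arrays, a 2.27-fold excess (2.14 to 2.41). Vnn1, a pantetheinase, was 2.13-fold higher (1.83 to 2.49), and Plin2, which coats lipid droplets, 1.72-fold (1.65 to 1.79). Ehhadh, the peroxisomal bifunctional enzyme, was at the edge of the rule at 1.52-fold (1.49 to 1.56), and dropped out of it after quantile normalisation or cyclic loess, without the obese original array and on the technical replicate arrays alone. Pdk4, which spares glucose by restraining pyruvate oxidation, went the other way at 9.79 and 9.82 against 9.16 and 8.96, a factor of 1.68 lower (1.55 to 1.82). Cpt1a, the gate of mitochondrial fatty acid oxidation, had a difference of -0.20 and Angptl4, an inhibitor of lipoprotein lipase, one of -0.18, neither past the rule.

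**Figure D3:**
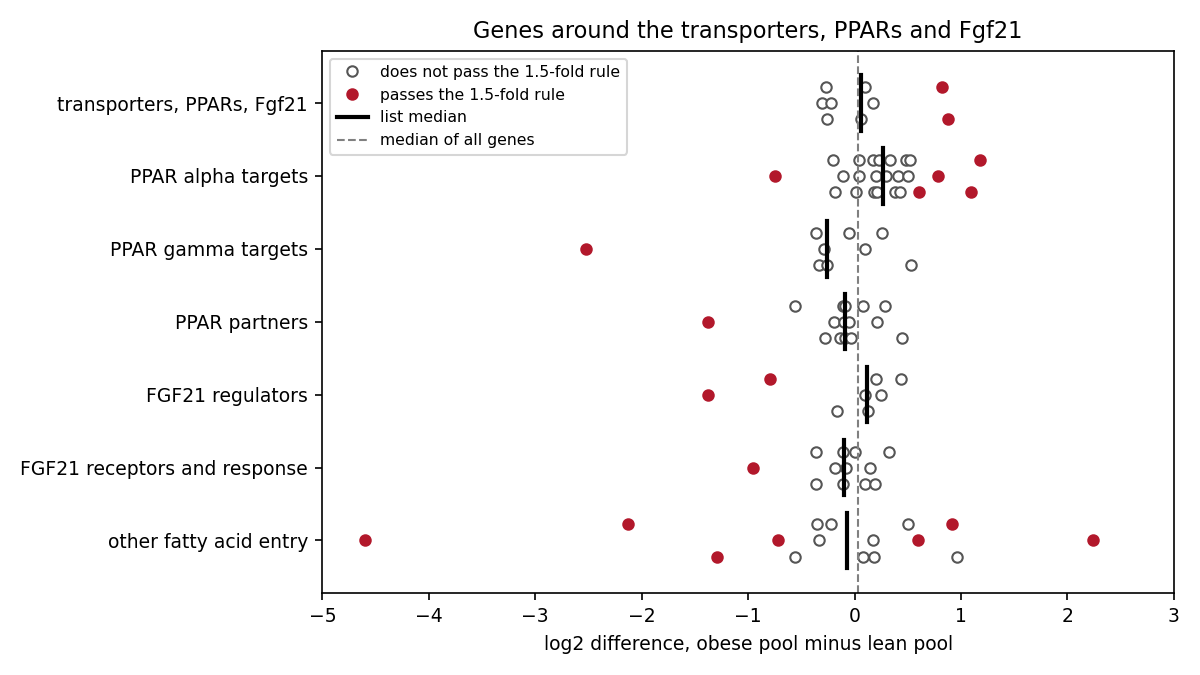
Log2 difference of the obese minus the lean pool (horizontal axis) for every measured gene of each list, filled where the gene passed the 1.5-fold rule, with a thick line at the list's median and a dashed line at the median of all genes, 0.03. The median of the PPAR alpha targets lies at 0.26 and that of the PPAR gamma targets at -0.26.

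Targets of PPAR gamma had a median below 0. Neither list of PPAR targets held any of the 10 genes, so Cd36 and Fgf21 are not in their counts. Of 9 measured targets 4 reached the level filter. By the rule 0 were higher and 1 was lower, against 2.19% and 2.43% of all genes. The median was -0.26, but -0.15 when the obese original array was left out and -0.17 when the lean original was. The lower gene was lipoprotein lipase (Lpl), at 8.42 and 8.45 against 6.11 and 5.72, which muscle also expresses. Cidec, a protein that fuses lipid droplets, had the largest positive difference, 0.53, without passing the rule. The adipocyte genes Adipoq, Fabp4 and Plin1 were below the level filter in both pools.

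Of 15 measured receptor partners and coregulators of the PPARs, 0 were higher and 1 was lower, against 2.19% and 2.43% of all genes. Their median was -0.09. Without the lean or the obese technical replicate array the median was -0.01 or -0.04. The lower gene was Ppargc1a, a coactivator of mitochondrial genes, which read 5.65 and 5.59 on lean and 4.60 and 3.89 on obese arrays. The obese values lay under the level filter, so no fold is given, and Ppargc1a did not pass where both pools had to reach the filter. Rxra, the main retinoid X receptor of liver, had a fold of 1.02 (0.98 to 1.06) and was level between the pools within the spread of the arrays. Ppard, the third PPAR, read 6.36 and 6.25 against 6.03 and 6.38, with overlapping arrays.

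Fgf21 stood at 6.24 and 6.51 on the lean arrays and at 7.30 and 7.22 on the obese arrays. Both obese arrays lay at least 0.71 above the lean ones, while the arrays of a pool lay 0.27 apart for lean and 0.08 for obese RNA. The excess in the obese pool was 1.84-fold (1.64 to 2.08), a size reached by 2.90% of all genes. The value for Ppara between the same pools was -0.31.

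Among 8 measured regulators of Fgf21, 0 were higher and 2 were lower by the rule, against 2.19% and 2.43% of all genes. Their median was 0.12. Nr1d1, a clock repressor, read 9.12 and 9.19 on lean and 8.42 and 8.32 on obese arrays, 1.73-fold lower (1.63 to 1.84). Ppargc1a was the other, and did not pass where both pools had to reach the filter. The remaining ones stayed short of the rule. The membrane-bound factor Creb3l3 had a fold of 1.15 (1.08 to 1.22), the stress factor Atf4 1.10 (1.05 to 1.14) and Mlxipl, the carbohydrate-sensing factor ChREBP, 1.07 (1.05 to 1.09). Each of these fold ranges stayed above 1.0. Ddit3, a stress factor downstream of Atf4, had a difference of 0.44 and passed the rule without the obese technical replicate array and on the original arrays alone.

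On the receiving side, none of the FGF receptor genes passed the rule. Fgfr4, the main FGF receptor of hepatocytes, read 7.61 and 7.52 against 7.77 and 7.67, a fold of 1.11 (1.04 to 1.19). Fgfr1, the usual partner of beta-klotho for FGF21, was 1.13-fold lower (1.06 to 1.20), Fgfr2 1.24-fold higher (1.11 to 1.39) and Fgfr3 overlapped between the pools. Of the 12 genes for receptors and response 0 were higher and 1 was lower, against 2.19% and 2.43% of all genes. Their median was -0.09, and became 0.06 when the obese technical replicate was left out and -0.14 when the obese original was. The lower gene was Egr1, an immediate early gene that FGF signalling induces, at 7.79 and 7.76 on lean and 6.87 and 6.78 on obese arrays, a 1.93-fold difference (1.85 to 2.01). Dusp6, a phosphatase that answers to the same kinase pathway, had a difference of -0.36 and Spry4, a feedback inhibitor, one of 0.00.

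The promoters of the pair of genes that passed the rule are shown with that of the liver carrier Slc27a2, which held the closest match, because PPARs bind a direct repeat of the letters AGGTCA with 1 base between the copies. RefSeq windows of build GRCr8, taken as the 250 bases before an annotated start, were at hand for all 10 genes, 11 windows in all since Pparg has 2. They were searched on both strands for AGGTCA, for the full repeat AGGTCANAGGTCA with up to 3 mismatches, which overlaps the single copies, and for CACGTG, the E-box core, which reads the same on both strands. Capitals mark matches, and Cd36 has none. The Cd36 window lies before 1 annotated start inside a gene that begins further upstream.

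Fgf21 (chr1:105221377-105221626, minus strand): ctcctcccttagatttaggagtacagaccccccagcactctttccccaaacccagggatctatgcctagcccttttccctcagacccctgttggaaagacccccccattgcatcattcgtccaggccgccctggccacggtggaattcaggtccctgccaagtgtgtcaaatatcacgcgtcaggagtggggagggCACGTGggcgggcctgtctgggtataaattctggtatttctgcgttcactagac
Cd36 (chr4:18246332-18246581, plus strand): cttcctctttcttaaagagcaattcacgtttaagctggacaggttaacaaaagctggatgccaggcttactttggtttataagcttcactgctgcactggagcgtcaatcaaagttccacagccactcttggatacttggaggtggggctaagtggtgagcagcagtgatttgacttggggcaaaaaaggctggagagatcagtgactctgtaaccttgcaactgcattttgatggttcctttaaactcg
Slc27a2 (chr3:134257851-134258100, plus strand): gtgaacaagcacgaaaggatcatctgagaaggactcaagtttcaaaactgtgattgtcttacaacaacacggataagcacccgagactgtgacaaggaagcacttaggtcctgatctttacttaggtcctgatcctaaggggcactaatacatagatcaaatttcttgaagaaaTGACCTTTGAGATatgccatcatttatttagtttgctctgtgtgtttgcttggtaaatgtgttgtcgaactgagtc

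The Fgf21 window held CACGTG from 54 to 49 bases before the start, a match found in 5.59% of all 33469 windows. It held no AGGTCA and no match to the repeat. The Slc27a2 window held the repeat with 2 mismatches on the opposite strand, from 76 to 64 bases before the start, and 3.15% of all windows held a match that close. That share is for any single window, whereas this window was picked as the closest match of those searched. With 3 mismatches allowed, 21.4% of all windows matched, among them those of Slc27a1, Klb and Slc27a5. A single AGGTCA was present in the windows of Slc27a1 and Slc27a2 and in 14.1% of all windows. A match describes letters and not binding, and a window without one says nothing about sites elsewhere.

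Hepatocyte markers stayed short of the rule. All 12 hepatocyte markers reached the level filter in both pools and 0 passed, among them albumin (Alb), transferrin (Tf) and transthyretin (Ttr). Their summed intensities (log2) were at most 16.06 on lean arrays and 16.16 on both obese arrays, so both obese arrays stood higher. Of these 12 markers 10 had differences above 0 and 2 below, from -0.11 for Asgr2 to 0.41 for Apoa1, with a median of 0.1. The part of this shift in the differences of other liver genes, such as the PPAR alpha target median of 0.26, was not tested. Kupffer cell markers, such as Clec4f, Cd163 and Csf1r, were all 8 below 0 with a median of -0.25, and the 5 endothelial ones, such as Eng, Lyve1 and Kdr, all below 0 with a median of -0.31, none of them past the rule. Those cells carry Cd36 as well, and their part in its level was not tested. Of 8 stellate cell markers 3 were lower by the rule, against 2.43% of all genes, 5 did not pass it, and the median was -0.36. Those that did not pass ran from -0.38 for Rgs5 to 0.11 for Pdgfrb. Desmin (Des), a filament protein that muscle also makes, read 9.12 and 9.38 on lean and 5.04 and 5.34, under the level filter, on obese arrays. Decorin (Dcn), a matrix proteoglycan, had a difference of -1.90 (-2.21 to -1.59) and the collagen gene Col1a1 one of -0.97 (-1.08 to -0.87). The part of the muscle RNA in the values of Des, Dcn and Col1a1 was not tested. Of the 7 adipocyte markers 0 passed, 2 had differences above 0 and 5 below, and the median was -0.29. Only 2 reached the level filter in both pools, Cidec with a difference of 0.53 and Lipe with -0.26. Adipoq, Plin1 and Lep were among those below it in both pools. Of 5 heart markers 1 passed as lower, against 2.43% of all genes. It was Myh6, with an obese level under the filter.

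**Figure D4:**
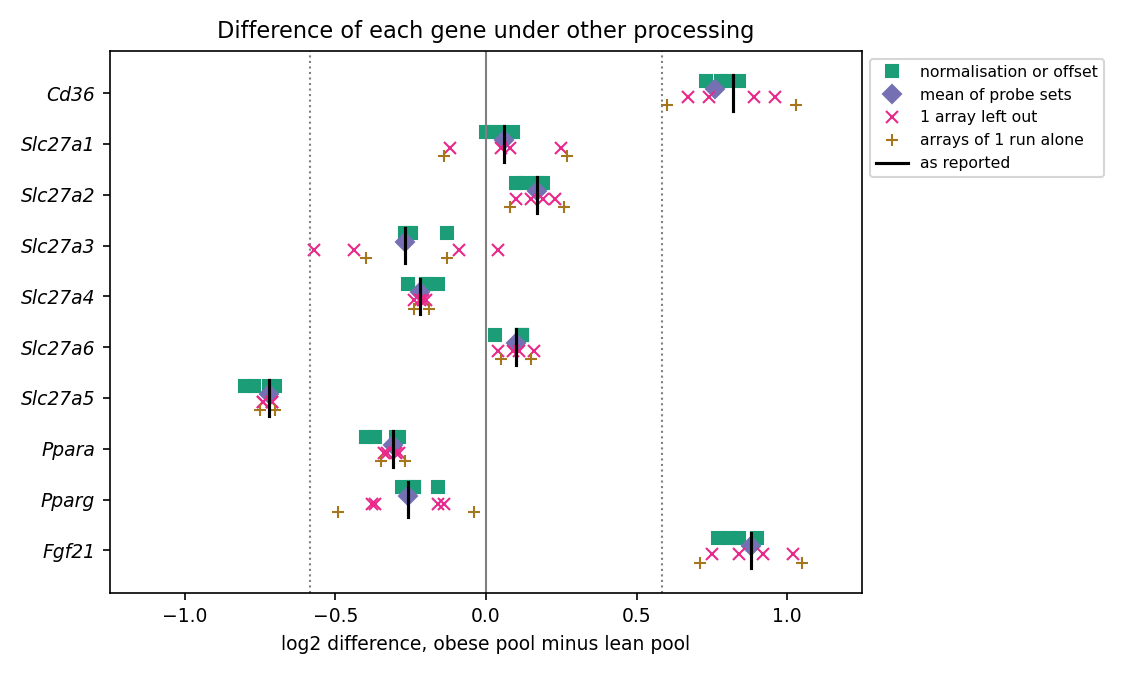
Log2 difference of the obese minus the lean pool (horizontal axis) for each gene as reported (black line) and under other processing, by kind of change, with dotted lines at a factor of 1.5. Cd36 stays between 0.60 and 1.03 and Fgf21 between 0.71 and 1.05, whereas Slc27a1 and Slc27a3 take both signs.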

How the data were processed

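The authors deposited linear-scale intensities from 100 ng of pooled RNA, summarised per probe set with RMA, per the submitters' processing notes. This method corrects background, normalises between arrays and summarises probes, and it compresses dim and bright values. The software version and genome build are not given in the sources used here. Array medians ran from 25.73 to 27.69, and the log2 was taken with no further normalisation.

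Of 29214 probe sets 15310 carried 1 gene symbol, 323 several and 13581 were not listed in the platform annotation. The probe set with the highest mean stood for a gene. Arrays were grouped by the phenotype in the labels. The number of arrays limits the precision, and ranges over array pairs leave out differences between animals. No p-values were computed.

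The genes, the lists and the rule were chosen with earlier results of these data known. Named are the chosen genes, at most 6 genes per list that passed the 1.5-fold rule, Slc27a5, and up to 3 genes per marker list by mean level. Others, such as Acsl1, Cpt1a, Rxra, the FGF receptors and stellate and adipocyte markers, are named for their roles after their values were seen. The rule was tested on simulated data. Python 3.11.15, pandas 2.3.3 and limma 3.58.1 (cyclic loess) were used. The 13 alternatives changed the normalisation, the offset, the probe set, the level filter or the arrays used.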

Additional observations from a re-analysis of the deposited data

How the results depend on the processing

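Cd36 and Fgf21 were the only genes of the group past the 1.5-fold rule under each of the 13 alternatives, with 0 lower. The count of higher PPAR alpha targets ran from 3 to 5 when an array was left out and was 3 after quantile normalisation or cyclic loess, and 1 was lower throughout. Over all genes, 317 were higher and 352 lower, a split that was 227 and 400 with cyclic loess, 256 and 151 with both pools held to the level filter, 553 and 336 without the obese technical replicate array and 616 and 342 on the original arrays alone. No scaling moved the median of all genes beyond 0.05. No paired analysis was possible because each phenotype was 1 pool. The difference of Pparg was -0.49 on the original and -0.04 on the technical replicate arrays. Lpin1 passed as a lower PPAR partner after quantile normalisation or cyclic loess, without the obese original array and on the technical replicate arrays alone. Rxrg passed as a higher one without the obese technical replicate array and on the original arrays alone. Without an array's own detection call, genes under the level filter are not shown to be above background.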
